A study of Mus musculus with 16 samples.

Results

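The genes described here are 7 enzymes of cholesterol synthesis, *Hmgcs1*, *Idi1*, *Fdps*, *Fdft1*, *Sqle*, *Cyp51* and *Msmo1*, and *Insig1*, a sterol-sensing brake on the same pathway. They were taken by symbol and are 8 of the 30389 genes in the count tables of a single-cell RNA sequencing study of the mouse cerebral cortex. The 16 libraries, 1 per mouse at 17 months of age, came from male and female mice of the THY-Tau22 line and from littermates without the transgene (wild type, WT). THY-Tau22 mice are heterozygous for a human tau transgene with the G272V and P301S mutations, driven by the neuronal Thy1.2 promoter, and both genotypes came from crosses to C57Bl6/J females. The tables hold no row for human *MAPT*, so the genotype labels could not be checked against the transgene.

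THY-Tau22 male replicate 4 had 2952 of its 3000 cell barcodes in common with WT male replicate 3, where any other pair of libraries had 3 to 12. Neither library was used, so 3 WT and 3 THY-Tau22 males and 3 WT and 5 THY-Tau22 females remained. Barcodes with 200 to 7000 detected genes were kept, 24578 cells in the 14 libraries, with 755945 to 2089367 unique molecular identifiers (UMIs) per library and a median of 429 to 736.5 UMIs per cell. Mitochondrially encoded transcripts, ribosomal RNAs included, took 6.08% to 23.6% of a library's UMIs. Their share was lowest in WT female replicate 2 (6.08%) and THY-Tau22 female replicate 4 (8.24%), and it was 12.5% to 14.3% in the THY-Tau22 males and 17.8% to 23.6% in the WT males. The median share of mitochondrial mRNA alone ran the other way, at 0.889% to 1.33% in THY-Tau22 males and 0.351% to 0.571% in WT males. One animal number stands in the titles of both THY-Tau22 female replicate 1 and WT male replicate 1.

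Cholesterol does not cross the blood-brain barrier, so brain cells make their own from acetyl-CoA. In the adult brain astrocytes are regarded as a main source, passing cholesterol to neurons on ApoE particles, while oligodendrocytes need it for myelin. When membrane sterol is low, the transcription factor SREBP2 is released from the endoplasmic reticulum and switches on nearly every enzyme of the pathway together. INSIG1 holds the SREBP escort SCAP in the endoplasmic reticulum when sterol is plentiful, and its gene is itself an SREBP target. SREBP binds sterol response elements and works with factors on CCAAT and GC boxes.

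Promoters are shown because these genes are known to share this control and, below, shared a highest cell class. RefSeq promoters (GRCm38.p6) were matched by symbol for 5 of the 8 genes, *Hmgcs1*, *Idi1*, *Cyp51*, *Msmo1* and *Insig1*, and the 250 bases before the transcript start were searched on both strands. The letters CCAAT were found in 5 of 5, against 33.8% of all 32851 promoters, and GGGCGG in 5 of 5, against 32.7%. The stricter sterol response element TCACNCCAC was found in 1 of 5, *Hmgcs1*, against 1.05% of all promoters. The motifs did not overlap one another in the stretches printed here. The stretches of *Hmgcs1* and *Insig1* that lie outside the annotated gene and hold a CCAAT box are shown on the coding strand, with CCAAT boxes (read as ATTGG on this strand) and the sterol response element in capitals. That of *Hmgcs1* lies at chr13:119690101-119690350 (plus strand) and that of *Insig1* at chr5:28071162-28071362 (plus strand).
Hmgcs1: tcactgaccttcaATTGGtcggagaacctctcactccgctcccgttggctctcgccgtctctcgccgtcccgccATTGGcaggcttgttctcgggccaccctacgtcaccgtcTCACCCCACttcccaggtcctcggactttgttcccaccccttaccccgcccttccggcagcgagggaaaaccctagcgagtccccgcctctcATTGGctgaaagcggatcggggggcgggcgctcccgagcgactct
Insig1: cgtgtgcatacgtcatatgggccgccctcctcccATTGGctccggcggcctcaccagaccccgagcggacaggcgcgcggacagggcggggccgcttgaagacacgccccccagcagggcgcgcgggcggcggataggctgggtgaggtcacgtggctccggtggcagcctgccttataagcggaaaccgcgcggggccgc
In *Cyp51* the single CCAAT lies inside the annotated gene, and the 201 bases before the gene held neither CCAAT nor the sterol response element. *Hmgcs1* carried ATTGG 3 times and the sterol response element once, beginning 137 bases before the start. In *Insig1* the single ATTGG began 216 bases before the start. A match is a description of the letters and was not tested as a binding site.

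The members were all detected in every one of the 14 libraries, from sparse counts. *Msmo1* gave 2023 UMIs in all, *Hmgcs1* 1763, *Cyp51* 1233, *Insig1* 818, *Sqle* 504, *Fdft1* 465, *Fdps* 286 and *Idi1* 94. Together they gave 7186 UMIs, found in 4747 cells, and no cell held more than 22 of them. Since each UMI marks the 3′ end of 1 transcript, values are given as CPM (UMIs of the gene scaled to 1000000 UMIs in a library's summed cells), and they are compared between cells and libraries and not between genes.

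Cell classes were set by clustering without the members or the genes of the further cholesterol lists read below, and named from marker genes. The astrocyte-like class held 4761 cells, led by *Aldoc*, *Gja1* and *Aqp4*, with all 10 astrocyte markers detected. The other classes compared were oligodendrocyte-like (4668 cells), oligodendrocyte precursor (OPC)-like (1106), neuron-like (1222), microglia-like (6847) and endothelial-like (3530). Mural-like (862), macrophage-like (335), fibroblast-like (147) and ependymal-like (127) cells and 973 cells of unnamed clusters were left out of the class comparison. The larger microglia-like cluster was led by immune response genes such as *Cd83*, *Il1a* and *Ccl4*. 

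Among the 6 classes compared, astrocyte-like cells had the highest mean level of all 8 genes. For 6 of the 8 the mean difference from the next class passed the permutation test described below. Astrocyte-like cells made up 19.4% of the cells and 17.8% of the UMIs, and gave 50.5% of the members' UMIs. Oligodendrocyte-like cells, nearly as numerous, gave 20.7%, and microglia-like cells, the most numerous at 27.9% of cells, gave 4.84%. Among 13995 genes with at least 50 UMIs, 13.0% had their highest mean level in astrocyte-like cells and 21.1% their lowest in microglia-like cells, where 7 of the 8 members were lowest. Each neighbouring pair of classes was compared within libraries by an exact two-sided sign-flip permutation test, with Benjamini-Hochberg adjustment, and 14 of the 40 pairs passed.

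**Figure D1:**
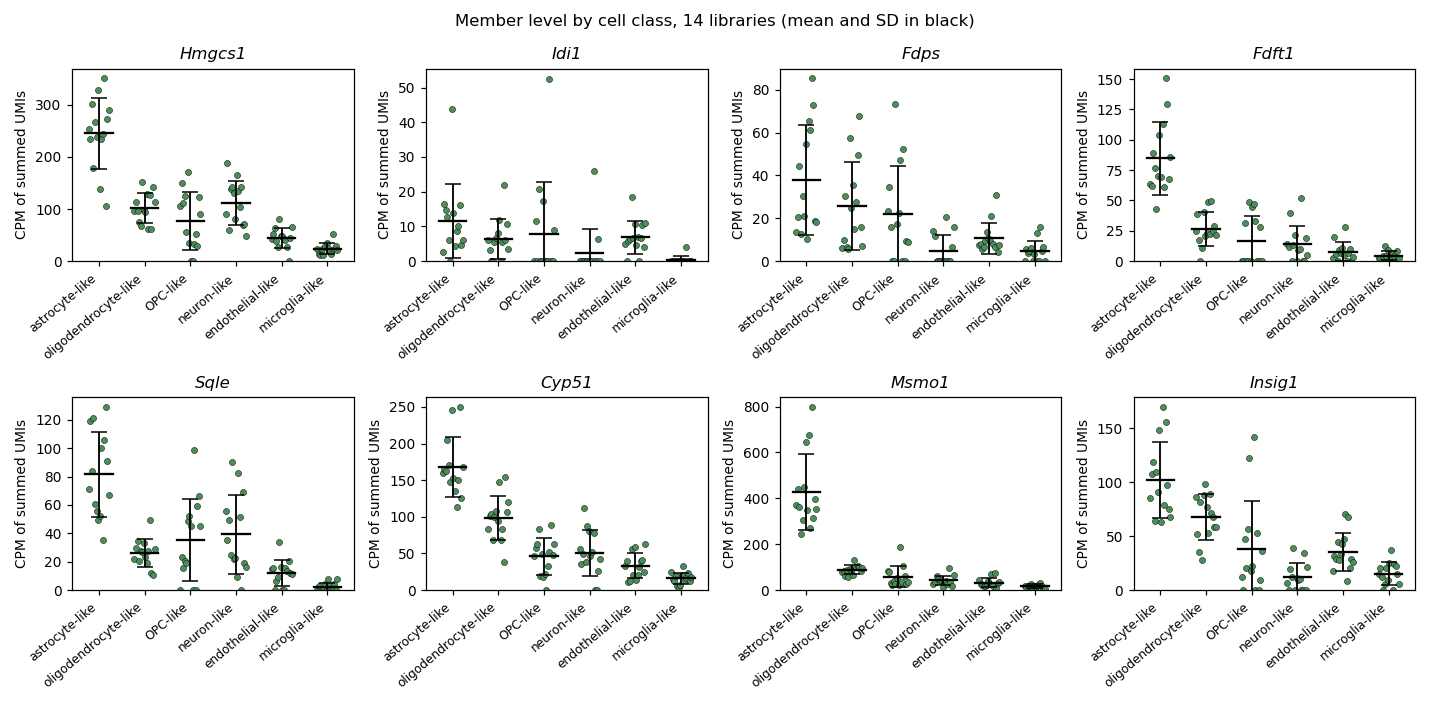
Level of each gene (CPM of summed UMIs, linear axis from 0) in 6 cell classes, with 1 point for each of 14 libraries and the mean ± SD in black (bars are drawn from 0 upward). The astrocyte-like points of *Msmo1* lie between 243 and 800 CPM, above all points of the other classes, while those of every other member overlap with other classes.

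HMG-CoA synthase, encoded by *Hmgcs1*, acts early in the pathway, before mevalonate. *Hmgcs1* stood at 246 ± 68.2 CPM (SD, n = 14) in astrocyte-like cells, with a lowest library of 105, a median of 248.8 and a highest of 352. Neuron-like cells came next at 112 ± 42.9 CPM, lower in 13 of 14 libraries (exact permutation, adjusted p = 0.00137). This neuronal level was close to that of oligodendrocyte-like cells at 102 ± 29.3 CPM, a step that did not pass (exact permutation, adjusted p = 0.605). OPC-like cells followed at 77.2 ± 55.1 and endothelial-like cells at 44.3 ± 19.3 CPM, neither apart from its upper neighbour. Microglia-like cells were lowest at 23.9 ± 10.6 CPM, below endothelial-like cells in 12 of 14 libraries (adjusted p = 0.0220).

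*Idi1* and *Fdps* act on the isoprenoid units that follow mevalonate, as isopentenyl diphosphate isomerase and farnesyl diphosphate synthase. Both were too sparse for a class order. *Idi1* was at 11.5 ± 10.7 CPM in astrocyte-like cells from 33 UMIs and at 7.94 ± 14.7 in OPC-like cells from 5 UMIs (adjusted p = 0.586), and microglia-like cells held 1 UMI in all. In macrophage-like cells, outside the comparison, *Idi1* was at 20.3 ± 69.2 CPM from 4 UMIs, with 12 of 14 libraries at 0. *Fdps* was at 37.8 ± 25.5 CPM in astrocyte-like and 25.7 ± 20.4 in oligodendrocyte-like cells, higher in astrocyte-like cells in 12 of 14 libraries but not past the threshold (adjusted p = 0.15). Its libraries varied widely even in the astrocyte-like class, from 10.4 through a median of 25.7 to 85.5 CPM. Neuron-like cells held 9 *Fdps* UMIs, with 9 of 14 libraries at 0.

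Squalene synthase and squalene epoxidase, encoded by *Fdft1* and *Sqle*, commit the chain to sterols. *Fdft1* was 3.17-fold higher in astrocyte-like cells (84.6 ± 30.0 CPM) than in oligodendrocyte-like cells (26.7 ± 13.9), in 14 of 14 libraries (adjusted p = 9.16e-04). Its remaining classes, from OPC-like at 16.7 ± 20.8 to microglia-like at 4.35 ± 3.72 CPM, held no neighbouring pair that passed. *Sqle* was 2.08-fold higher in astrocyte-like cells (81.6 ± 30.1 CPM) than in neuron-like cells (39.2 ± 27.9), in 12 of 14 libraries (adjusted p = 0.00930). As with *Hmgcs1*, the neuron-like class ranked above the oligodendrocyte-like class for *Sqle* (26.1 ± 9.76 CPM), here with OPC-like cells between them and neither step past the threshold. *Sqle* fell to 12.1 ± 9.07 CPM in endothelial-like cells and to 2.17 ± 2.93 in microglia-like cells, each step past the threshold (adjusted p = 0.00930 for both).

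Lanosterol demethylase and the sterol C4-methyl oxidase, encoded by *Cyp51* and *Msmo1*, strip methyl groups from the sterol ring. *Cyp51* had a clear second class: astrocyte-like cells at 168 ± 40.4 CPM exceeded oligodendrocyte-like cells at 98.4 ± 30.5 in 14 of 14 libraries (adjusted p = 9.16e-04), and these exceeded neuron-like cells at 50.2 ± 31.6 in 13 of 14 (adjusted p = 0.00930). *Msmo1* had the largest fold of the 8 members between the astrocyte-like and the next class, 4.87-fold from 426 ± 165 CPM in astrocyte-like cells to 87.5 ± 19.7 in oligodendrocyte-like cells, again in 14 of 14 libraries (adjusted p = 9.16e-04). Of all *Msmo1* UMIs, 66.9% came from astrocyte-like cells. Its oligodendrocyte-like level exceeded the OPC-like level of 57.3 ± 45.8 CPM (adjusted p = 0.0255).

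*Insig1* is the regulator among the members. Astrocyte-like cells were at 102 ± 34.9 and oligodendrocyte-like cells at 67.4 ± 21.1 CPM, higher in the former in 10 of 14 libraries (adjusted p = 0.0296), and leaving out any 1 of WT male replicate 2, THY-Tau22 male replicates 2 and 3, THY-Tau22 female replicates 1 and 2 and WT female replicate 2 moved this p to between 0.0533 and 0.0592. It was 0.0504 with doublets removed and 0.0557 without the 2 libraries with MB22 in their titles. Endothelial-like cells, at 35.3 ± 17.6 CPM, stood above microglia-like cells at 15.2 ± 10.5 in 13 of 14 libraries (adjusted p = 0.00137). Neuron-like cells, with 15 *Insig1* UMIs and 5 libraries at 0, stood at 11.8 ± 12.8 CPM, and microglia-like cells were above them in 7 of 14 libraries (exact permutation, adjusted p = 0.608).

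The same classes were set beside the level of astrocyte markers outside astrocyte-like cells, which measures transcripts carried over between cells. In microglia-like cells the 10 astrocyte markers stood at 1.41% to 6.15% of their astrocyte-like level, with a median of 2.04%. *Idi1* (2.47%), *Sqle* (2.66%), *Msmo1* (3.98%) and *Fdft1* (5.14%) lay within that range and are read as background in microglia-like cells. *Cyp51* (9.48%), *Hmgcs1* (9.70%), *Fdps* (12.0%) and *Insig1* (14.9%) lay above it. In oligodendrocyte-like cells the markers reached at most 5.54% of their astrocyte-like level and the members 20.5% to 67.9%. In neuron-like cells these values were at most 8.02% and 9.77% to 48.0%. In OPC-like cells the markers reached 1.74% to 17.8%, and *Msmo1* (13.4%) lay within that range and is read as background there, while the other members stood at 19.8% to 69.2%.

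Counted as UMIs per cell, without scaling to the total, the astrocyte-like class stayed highest for all 8 genes, but the step to the next class passed only for *Msmo1*, *Fdft1* and *Cyp51*. Neuron-like cells held more UMIs than astrocyte-like cells (median 709.5 and 556), and per cell *Hmgcs1* reached 0.164 UMIs in astrocyte-like and 0.117 in neuron-like cells (adjusted p = 0.134). With cells of at least 500 detected genes the steps of *Sqle*, *Cyp51* and *Insig1* no longer passed.

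The rest of the pathway was read from 3 further gene lists. Of 13 other sterol synthesis enzymes, 12 had their highest mean level in astrocyte-like cells. The most abundant of those reported here was *Sc5d*, a late desaturase, at 155 CPM in astrocyte-like, 113 in oligodendrocyte-like and 20.1 in microglia-like cells. The exception was *Ebp*, the sterol isomerase, named after its values were seen, at 10.8 CPM in astrocyte-like cells and 24.1 in microglia-like, 23.8 in endothelial-like and 23.6 in oligodendrocyte-like cells.

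Genes of control and traffic did not share this order. Among 9 SREBP regulators and uptake targets, 3 were highest in astrocyte-like cells, including *Srebf1*, the gene of SREBP1, at 99.6 CPM there and 5.44 in neuron-like cells. *Scap*, the SREBP escort, was at 24.2 to 44.5 CPM across the classes. *Insig2*, the second INSIG, was at 35.5 to 54.4 CPM and highest in endothelial-like cells, a flatter spread than the 11.8 to 102 CPM of *Insig1*. Of 11 genes of efflux, transport and turnover, 3 were highest in astrocyte-like and 3 in microglia-like cells. *Apoe*, the main lipid carrier of the brain, was at 7967 CPM in astrocyte-like and 291 in neuron-like cells. *Npc2*, a lysosomal cholesterol carrier (841 CPM), and *Mylip*, a ligase that degrades the LDL receptor (635 CPM), were highest in microglia-like cells, which were lowest for 7 of the 8 members.

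**Figure D2:**
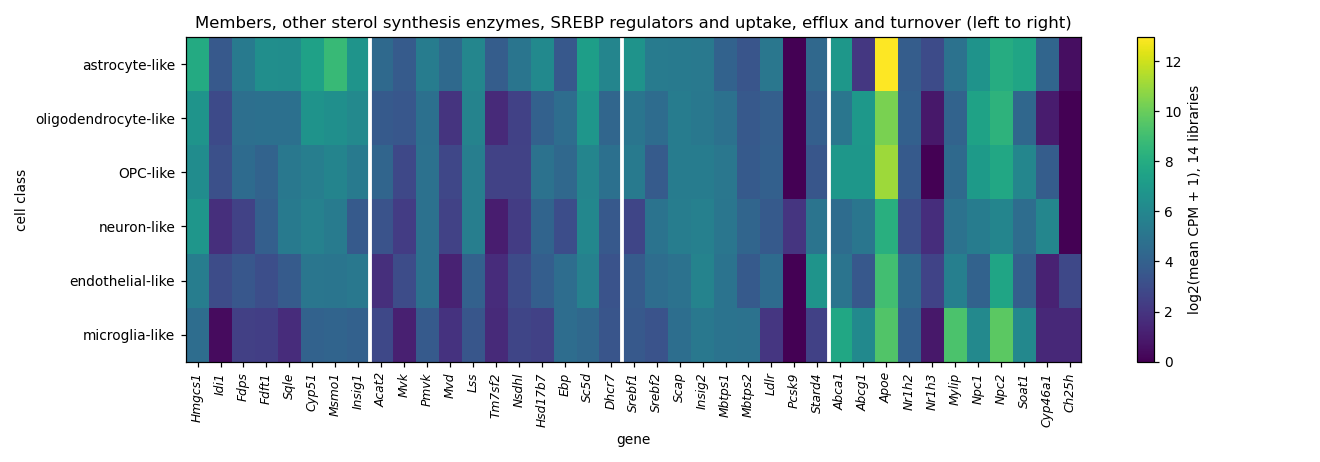
Mean level of the 8 members and other cholesterol genes in 6 cell classes, coloured by log2(mean CPM + 1) over 14 libraries, with white lines between the 4 gene lists. The synthesis genes on the left are brightest in the astrocyte-like row and dark in the microglia-like row, while *Npc2* and *Mylip* on the right are bright in the microglia-like row.

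The genes most like the members were sought by Pearson's r of log2(CPM + 1) with their sum, as a description. Over 84 profiles (6 classes in 14 libraries, which share libraries and differ in depth), *Prnp*, the prion protein gene (r = 0.92), and *Acsl3*, a long-chain acyl-CoA synthetase (r = 0.90), led 13987 genes, followed by *Gstm5*, *Ndrg2* and *Htra1* (r = 0.84 to 0.85). *Apoe* ranked 121st. Within astrocyte-like cells, over 14 libraries after subtracting group means, *Tmsb4x* (r = 0.83), *Atp1b2* (0.71), *Mfge8* (0.69), *Saraf* (0.68) and *Rps24* (0.66) led 584 genes.

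Whether the members rose and fell together from mouse to mouse was read in astrocyte-like cells, over 28 pairs of members and 14 libraries. The median Pearson r was 0.26, 24 of 28 pairs were above 0, and 4 pairs passed after adjustment. The strongest was *Msmo1* with *Insig1* (r = 0.84, permutation p = 5.20e-04, adjusted p = 0.0146), with a Spearman rho of 0.64 (p = 0.0158, adjusted p = 0.221) and r = 0.68 without the 2 libraries farthest from the median of *Msmo1*. *Fdps* with *Insig1* gave r = 0.71 (permutation p = 0.00475, adjusted p = 0.0443) and rho = 0.78 (p = 0.00144, adjusted p = 0.0403), and r = 0.74 without its 2 farthest libraries. *Fdps* with *Fdft1* (r = 0.77, permutation p = 0.00124, adjusted p = 0.0174) and *Idi1* with *Cyp51* (r = 0.70, permutation p = 0.00687, adjusted p = 0.0481) passed by r but not by rho (rho = 0.50, p = 0.0714, adjusted p = 0.495, and rho = 0.58, p = 0.0325, adjusted p = 0.304), and without the 2 farthest libraries they stood at r = 0.51 and 0.52. *Hmgcs1* and *Sqle* gave the lowest r, -0.28 (permutation p = 0.333, adjusted p = 0.622, and rho = -0.29, p = 0.312, adjusted p = 0.683). WT female replicate 2 was highest for *Msmo1* and *Fdps* and THY-Tau22 female replicate 4 was lowest for *Hmgcs1* and highest for *Cyp51*.

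Comparing THY-Tau22 with WT mice, no member was called in males, in females, over both sexes, for the interaction of genotype with sex or between the sexes, in all cells or in any class. A call needed an adjusted p under 0.05 (edgeR quasi-likelihood test, Benjamini-Hochberg over all genes tested) and a log2 fold change of 0.5 or more in size. After the filter on low counts, 7 members were tested in all cells and 7 in astrocyte-like cells (without *Idi1*), 5 in oligodendrocyte-like cells, 1, *Hmgcs1*, in each of neuron-like and endothelial-like cells, and none in OPC-like or microglia-like cells. In all cells and in astrocyte-like, neuron-like and endothelial-like cells the share of all genes called was 0% for the 4 contrasts with genotype. In oligodendrocyte-like cells it was 0.0684% in males, 0.0228% in females and over both sexes, and 0.274% for the interaction. Between the sexes it was 0.0515% in all cells, 0.0982% in astrocyte-like, 0.0913% in oligodendrocyte-like, 0.143% in neuron-like and 0.107% in endothelial-like cells. In bulk sums over all cells, fewer cells of a type and less RNA per cell cannot be told apart.

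At an unadjusted p under 0.05, 2 of the 7 members tested in all cells were higher in THY-Tau22 males, *Fdps* and *Insig1*, against 15.4% of all genes in either direction. No member reached it in females (1.74% of genes), over both sexes (4.22%) or between the sexes (1.58%), and 2 did so for the interaction, *Fdps* and *Msmo1* (12.7%). In astrocyte-like cells none did so in males (17.9%), females (2.87%), both sexes (4.49%) or between the sexes (2.16%), and *Fdps* and *Msmo1* did for the interaction (17.9%). The median log2 fold change of the members in all cells was 0.35 in males and -0.25 in females, beside 0.01 and -0.01 over all genes, and in astrocyte-like cells it was 0.12 and -0.31, beside 0.01 and -0.01.

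*Fdps* stood at 29.6, 18.6 and 25.4 CPM in the 3 THY-Tau22 males and at 8.64, 17.0 and 6.83 in the 3 WT males, without overlap. Its log2 fold change in males was 1.00 ± 0.47 (SE, edgeR quasi-likelihood test, unadjusted p = 0.0433, adjusted p = 0.314). In females the groups overlapped, at 18.5, 37.0 and 8.83 CPM in WT and 11.8, 10.4, 11.2, 34.4 and 10.3 in THY-Tau22 mice, where 1 library stood far above the other 4. The difference between the sexes in the effect of genotype was 1.44 ± 0.62 on the log2 scale (edgeR, unadjusted p = 0.0308, adjusted p = 0.344).

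*Insig1* also separated the males, at 58.2, 60.7 and 68.5 CPM in THY-Tau22 and 38.8, 43.0 and 35.3 in WT mice (log2 fold change 0.49 ± 0.23, edgeR unadjusted p = 0.0421, adjusted p = 0.311). Such a gap, every THY-Tau22 male above every WT male, was found for 2 of 7 members and for 22.4% of all genes tested in all cells. The THY-Tau22 females were tightly grouped, from 39.5 to 45 CPM, inside the WT female values of 37.0, 67.4 and 34.7.

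*Msmo1* in all cells was at 97.3, 131 and 173 CPM in THY-Tau22 males and 102, 95.9 and 76.3 in WT males, which overlap. WT female replicate 2, at 232 CPM, was the highest library, against 82.0 and 105 in the other WT females and 85.4 to 114 in THY-Tau22 females. The interaction was 0.79 ± 0.37 on the log2 scale (edgeR, unadjusted p = 0.0445, adjusted p = 0.382). Within astrocyte-like cells the THY-Tau22 males, at 448, 646 and 674 CPM, stood above the WT males, at 371, 361 and 243, as 21.8% of all genes tested there did. The interaction there was 0.91 ± 0.39 for *Msmo1* (edgeR, unadjusted p = 0.0280, adjusted p = 0.226) and 1.73 ± 0.83 for *Fdps* (unadjusted p = 0.0448, adjusted p = 0.265).

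**Figure D3:**
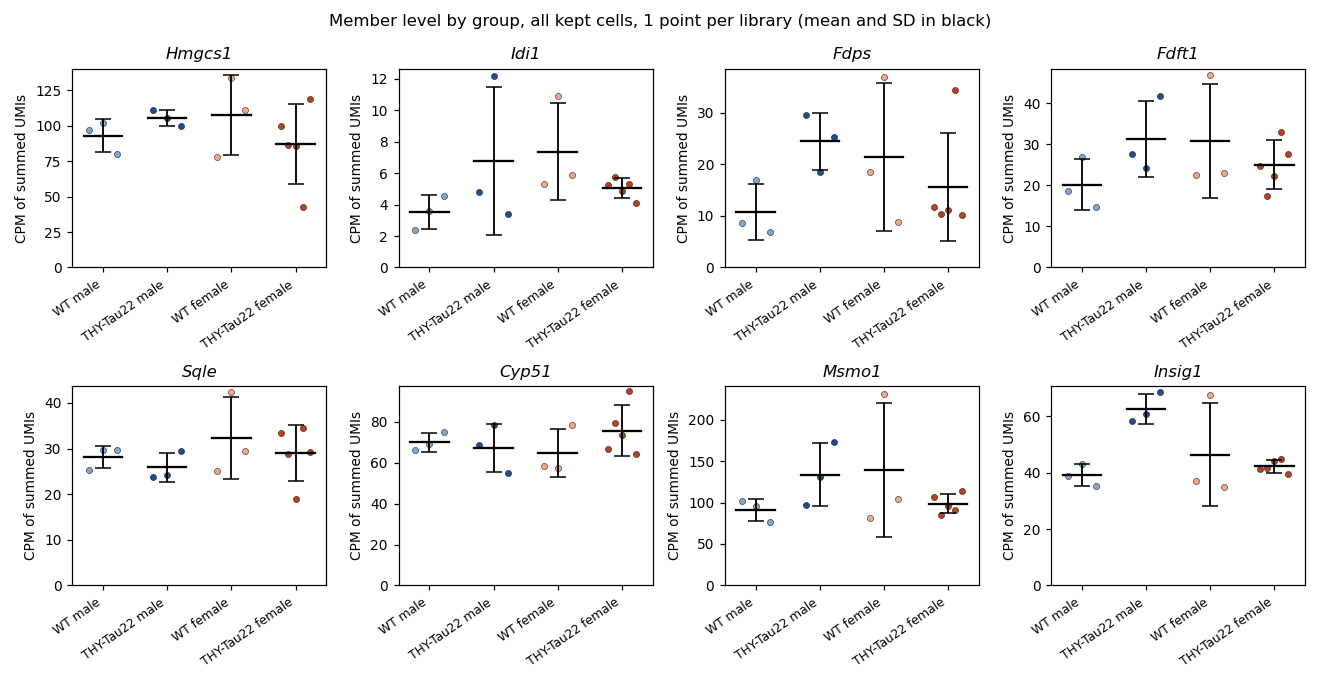
Level of each gene in all kept cells (CPM, linear axis from 0) by group, with 1 point per library (n = 3, 3, 3 and 5) and the mean ± SD in black. *Insig1* shows 3 THY-Tau22 male points at 58.2 to 68.5 CPM above 3 WT male points at 35.3 to 43.0. WT female replicate 2, the library of lowest mitochondrial share, lies above the other WT females for every gene except *Cyp51*.

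For the remaining members the genotype groups overlapped. *Hmgcs1* in all cells was at 105 ± 5.64 CPM in THY-Tau22 and 93.0 ± 11.8 in WT males (n = 3 each), and at 86.7 ± 28.2 in 5 THY-Tau22 and 108 ± 28.0 in 3 WT females. Its lowest library was THY-Tau22 female replicate 4, at 42.3 CPM, which was highest for *Cyp51*, at 95.2. Among the 7 members tested in all cells, log2 fold changes ran from -0.29 to 1.00 in males and from -0.44 to 0.19 in females. In oligodendrocyte-like cells the 5 members tested ran from -0.14 to 0.97 in males and from -0.33 to 0.53 in females, with a smallest adjusted p of 0.514 (edgeR).

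**Figure D4:**
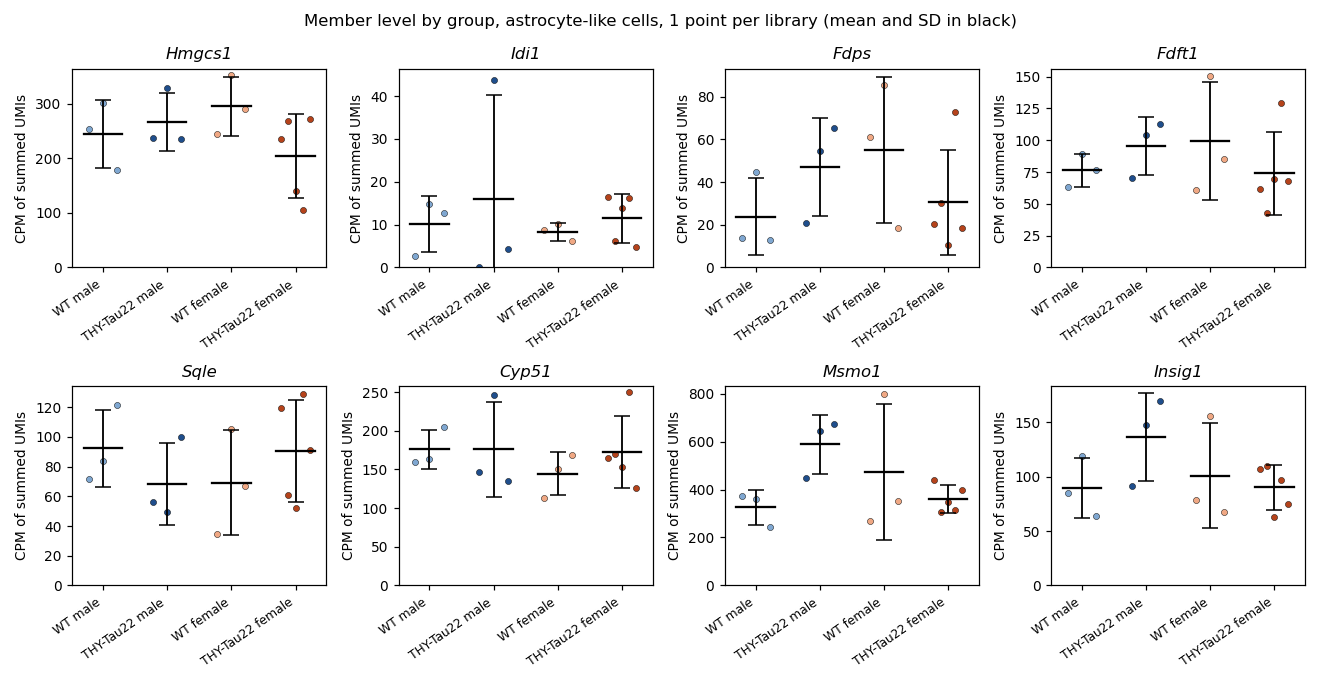
Level of each gene in astrocyte-like cells (CPM, linear axis from 0) by group, with 1 point per library (n = 3, 3, 3 and 5) and the mean ± SD in black (bars are drawn from 0 upward). *Msmo1* separates the THY-Tau22 males (448 to 674 CPM) from the WT males (243 to 371), and for *Hmgcs1* the groups overlap.

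The further lists gave no call either. In males, 1 of 12 other enzymes tested in all cells, *Dhcr7*, which encodes the last enzyme of one branch, had an unadjusted p under 0.05, as 15.4% of all genes did (log2 fold change 0.84 ± 0.32, edgeR adjusted p = 0.268). In females 1 of 12 did, *Mvd*, which encodes the mevalonate diphosphate decarboxylase, beside 1.74% of all genes (log2 fold change -1.52 ± 0.56, edgeR unadjusted p = 0.0126, adjusted p = 1.00). *Apoe* had a log2 fold change of 1.17 ± 0.35 in males in all cells (edgeR adjusted p = 0.228) and 1.09 ± 0.32 in astrocyte-like cells (adjusted p = 0.15), where the values in females were -0.25 ± 0.30 and -0.30 ± 0.28. *Srebf1* had 0.89 ± 0.41 in astrocyte-like cells of males (edgeR adjusted p = 0.251) and -0.29 ± 0.35 in those of females. Over the efflux, transport and turnover list, log2 fold changes in males ran from -0.26 to 1.64 in microglia-like cells (edgeR, smallest adjusted p = 0.0738). In oligodendrocyte-like cells of males they ran from -0.63 to 1.02 (edgeR, smallest adjusted p = 0.0908).

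Several members moved with the mitochondrial share of the libraries, which also separated the male genotypes. Over 14 libraries *Fdps* in all cells fell as that share rose (Pearson r = -0.90, permutation p = 1e-05, the smallest that 100000 resamples can give, and Spearman rho = -0.90, p = 4e-05, adjusted p = 1.60e-04 and 6.40e-04 over 16 relations). With deviations from the group means r was -0.88, within the 12 libraries without MB22 in their titles -0.89, with mitochondrial genes left out of the totals -0.88, and without the 2 libraries of lowest share -0.79. Of 9336 genes with at least 200 UMIs, 2.51% had a lower r.

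*Insig1* (r = -0.67, permutation p = 0.00887, adjusted p = 0.0284, and rho = -0.70, p = 0.00705, adjusted p = 0.0501) kept r = -0.66 without the 2 libraries of lowest share. *Fdft1* (r = -0.73, permutation p = 0.00274, adjusted p = 0.0146, and rho = -0.61, p = 0.0228, adjusted p = 0.0913) stood at r = -0.51 without them. For *Insig1* 21% of genes had a lower r, and for *Fdft1* 16.5%. *Hmgcs1* (r = 0.11, permutation p = 0.715, adjusted p = 0.763, and rho = 0.09, p = 0.749, adjusted p = 0.799) and *Cyp51* (r = 0.08, permutation p = 0.784, adjusted p = 0.784, and rho = 0.24, p = 0.402, adjusted p = 0.722) gave values near 0. In all cells, with mitochondrial genes left out of the totals, r was -0.51 for *Insig1*, -0.61 for *Fdft1*, 0.39 for *Hmgcs1* and 0.47 for *Cyp51*. In astrocyte-like cells the r of *Fdps* was -0.77 (permutation p = 0.00130, adjusted p = 0.0104, and rho = -0.68, p = 0.00939, adjusted p = 0.0501), and -0.56 without the 2 libraries of lowest share.

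The part of this share in the male differences of *Fdps* and *Insig1* was not tested, since in males it does not overlap between the genotypes and the 2 cannot be told apart. Astrocyte-like cells made up 15.0% to 17.2% of the THY-Tau22 male and 18.6% to 20.7% of the WT male libraries. In THY-Tau22 male replicate 3, 28.6% of cells were in unnamed clusters, against 1.44% to 6.78% in the other libraries. Over named cells alone the astrocyte-like share was 15.3%, 17.6% and 23.7% in THY-Tau22 males and 21.4%, 19.9% and 18.96% in WT males. Without this library the log2 fold change in males was 1.01 for *Fdps* and 0.46 for *Insig1* (edgeR, unadjusted p = 0.0702 and 0.0866). The part of these shares in the male differences was not tested.

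**Figure D5:**
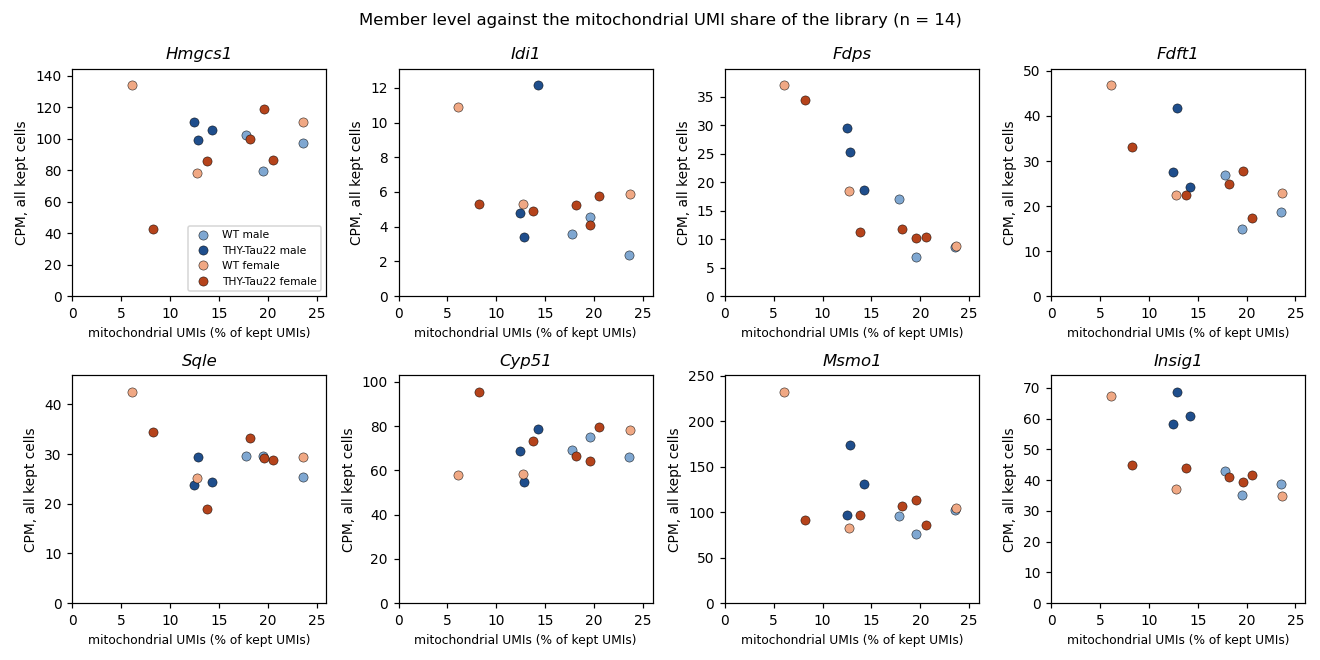
Level of each gene in all kept cells (CPM, vertical axis from 0) against the mitochondrial share of the library's kept UMIs (percent, horizontal axis), with 1 point for each of 14 libraries coloured by group. *Fdps* falls from 37.0 CPM at a share of 6.08% to 8.83 CPM at 23.6%, while *Hmgcs1* and *Cyp51* have r of 0.11 and 0.08.

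In the mouse genome (GRCm38, GENCODE M21) *Hmgcs1* lies on chromosome 13 from 119690379 to 119708260, *Idi1* on chromosome 13 from 8885501 to 8892451, *Fdps* on chromosome 3 from 89093588 to 89101959 and *Fdft1* on chromosome 14 from 63145150 to 63179578. *Sqle* lies on chromosome 15 from 59315077 to 59331192, *Cyp51* on chromosome 5 from 4081145 to 4104746, *Msmo1* on chromosome 8 from 64718139 to 64733792 and *Insig1* on chromosome 5 from 28071363 to 28078662. *Fdft1* overlaps *Ctsb* and *Cyp51* overlaps *Akap9* on the opposite strand, and whether the counting used strand is not given in the sources used here. *Hmgcs1* overlaps *Gm48342* and *Idi1* overlaps *Gm48574*, also on the opposite strand. *Fdps* overlaps *Gm22935* and the protein-coding *Gm43738* on the same strand. *Gm43738* held 1 UMI in the 14 libraries, and the effect of this overlap on the counts of *Fdps* was not tested. *Ctsb*, a lysosomal protease gene, was at 1149 CPM in microglia-like and 304 in astrocyte-like cells, the reverse of *Fdft1*, and *Akap9* was highest in OPC-like cells at 938 CPM.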

How the data were processed

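Cortex was dissociated and libraries were made by Drop-seq. The deposited tables hold UMI counts per gene and barcode, made by the authors with reads aligned to mm10 (per the labels), 3000 barcodes per library; the aligner and counting options are not given in the sources used here. The members and gene lists were chosen with earlier results of these data known. Cells with 200 to 7000 detected genes were kept, with no limit on mitochondrial transcripts. Clusters (2500 variable genes without the listed genes, 19 principal components, Leiden at 0.5) were named from markers when at least 3 were detected, no other class had more among the 10 leading genes, and either 1 led or their mean log2 fold was at least 2; this last allowance was made after the clusters were seen. Scrublet in scanpy 1.11.5 marked 5.31% of cells as doublets, which were kept and removed as an alternative.

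Counts were summed per library and class (at least 10 cells), since cells are not replicates. edgeR 4.0.16 fitted 4 groups together (TMM, filterByExpr, quasi-likelihood), after tests on simulated data. Whether 2 classes differed in CPM was tested by sign flips within libraries, adjusted over 45 pairs (40 of members and 5 of their sum). Correlations used 100000 permutations. Replicate numbers follow accession order and pair nothing, and the labels do not say that libraries were processed apart. Counting error alone limits genes with few UMIs. Genes named beside the members were the 3 most abundant of each list (some genes of the lists are not reported here), any that were called, and the 5 most like the members; others are said to be chosen after their values were seen or had an unadjusted p under 0.05. Alternatives were DESeq2 1.42.0, its size factors, no low-count filter, other cell, doublet, class and mitochondrial choices, the shared library kept, the 2 MB22 libraries left out, and each library left out.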

Additional observations from a re-analysis of the deposited data

Results flagged for a closer look

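Of 55 sets of 5 THY-Tau22 female libraries read for a lone value (8 genes in all cells and 6 classes, without *Idi1* in microglia-like cells, at 0 in all 5), 5 had a gap beyond the limit. For continuous values chance flags about 1 in 20. Sets of sparse counts with libraries at 0 do not meet that condition, so the rate cannot be applied to them. *Fdps* in THY-Tau22 female replicate 4 stood apart in all cells at 34.4 CPM and in endothelial-like cells at 30.9 CPM, beside a mitochondrial share of 8.24%, the lowest of that group. Single UMIs set 2 others, *Idi1* in OPC-like cells of replicate 1 (11.5 CPM) and in neuron-like cells of replicate 5 (6.42 CPM). *Msmo1* in neuron-like cells of replicate 5 was low, at 19.3 CPM.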

How the results depend on the processing

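No paired analysis was possible because the labels number no replicates, so the numbers used here follow accession order, and the groups share only 1 animal number. No member was called under any of the 26 or 27 alternatives of the 5 contrasts. *Fdps* in males stayed between 0.74 and 1.40 on the log2 scale over 27 alternatives, with an unadjusted p under 0.05 in 19, and *Insig1* between 0.39 and 0.57, in 15. The interaction of *Msmo1* in all cells ran from 0.36 to 1.30, under 0.05 in 16 of 26. Of the 40 neighbouring pairs of classes, 14 differed, 13 to 15 with 1 library left out and 5 with cells of at least 500 genes, which leaves fewer cells. Of the 8 members, 6 passed the step from astrocyte-like cells to the next class. With 1 library left out, 5 to 7 passed. It was 7 without THY-Tau22 male replicate 1, where *Fdps* passed (exact permutation, adjusted p = 0.0366), 5 where *Insig1* was lost, and otherwise 6. With doublets removed or without the 2 MB22 libraries 5 passed, where *Insig1* was lost. With at least 500 genes 3 passed, and 3 in UMIs per cell. *Idi1* reversed with classes set by marker counts, to -0.33 CPM. The cause of the last was not tested. *Idi1*, at 94 UMIs, was limited by depth throughout. The correlations with the mitochondrial share were chosen after the data were seen.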
